A study of Mus musculus with 4 samples.

Results

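Microglia were described here as the retinal cells with a transcript of at least 4 of 7 genes, namely the complement subunits C1qa, C1qb and C1qc, the signalling adaptors Tyrobp and Fcer1g, the lysosomal protease Ctss (cathepsin S) and the fractalkine receptor Cx3cr1. There were 78 such cells among 26543 cells in 4 single-cell libraries. They numbered 13 of 5697 cells in the unbleached vehicle library, 32 of 6809 in the bleached vehicle library, 33 of 7894 in the rolipram library and 0 of 6143 in the BC11-38 library.

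Every mouse was an Abca4-/-Rdh8-/- double knockout on C57BL/6J, 6 weeks old, and so lacked 2 genes that clear all-trans-retinal after light; the controls carried the same deletions. Each library pooled 4 retinae from 2 mice, dissociated with papain, with about 15000 cells loaded for 10x Genomics v3 chemistry. For the 3 bleached groups, mice spent 24 h in the dark, had their pupils dilated with 1% tropicamide, received white light of 10000 lux for 30 min and were sampled 1 day later. One group received rolipram at 2 mg/kg (an inhibitor of phosphodiesterase 4) and another BC11-38 at 2 mg/kg (an inhibitor of phosphodiesterase 11), injected intraperitoneally in DMSO 30 min before the light, and the third received DMSO vehicle alone. The unbleached group received DMSO vehicle; dark adaptation and pupil dilation were not recorded for it separately. A further group, given a phosphodiesterase 2 inhibitor, was not analysed here. There was 1 library per group, so no difference between groups has a replicate check and no test was made. Intervals are exact 95% intervals of counting error only.

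Microglia are the resident macrophages of the retina. At rest they sit in the plexiform layers, depend on CSF1 receptor and TGF-beta signals and express the purine receptor P2ry12 and the surface protein Tmem119; they supply C1q, which tags synapses and debris for removal. After photoreceptor damage microglia move towards the outer retina and take up dying rods, and in many settings of neural damage they lower their resting genes and raise a set that includes Spp1, Lpl, Lgals3 and Apoe. Raising cyclic AMP, which phosphodiesterase 4 degrades, is known to restrain inflammatory gene expression in macrophages.

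Because the 7 genes chose the cells, their levels in these cells are a description. All 7 were seen in 9 unbleached, 16 bleached vehicle and 21 rolipram cells, and exactly 4 in 0, 6 and 4 cells. Just outside the threshold, 3 genes were seen in 1 bleached vehicle cell, and 2 genes in 2, 7 and 1 cells of the same libraries. In the BC11-38 library 33 cells held 1 of the genes and none held more. A count of 0 of 6143 allows a share of up to 0.0488% by a limit of 3 counts, and the exact interval reached 0.06003%. The shares were 0.228% (0.122 to 0.390) in unbleached vehicle, 0.470% (0.322 to 0.663) in bleached vehicle and 0.418% (0.288 to 0.587) in rolipram. The intervals of the 3 libraries with microglia overlapped. The BC11-38 library held 2 transcripts of C1qa and 3 of Cx3cr1 in all its cells, whereas the unbleached vehicle library held 923 and 422, the bleached vehicle library 1621 and 617, and the rolipram library 1230 and 521. Nothing further could be measured on microglia after BC11-38. The compound, the 2 mice of that pool and the library cannot be told apart.

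**Figure D1:**
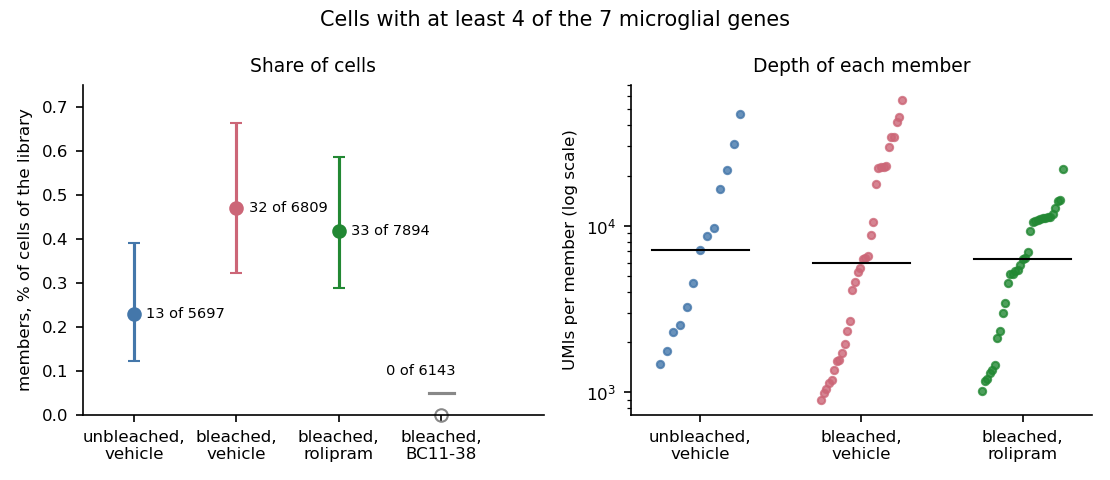
Share of cells that met the rule in each library (percent of all cells, with exact 95% binomial intervals) and transcript counts (unique molecular identifiers, UMIs, log axis) of each of the 78 cells. The shares were 0.228%, 0.470% and 0.418% in the unbleached vehicle, bleached vehicle and rolipram libraries, and the grey bar marks the limit of 0.0488% (3 counts) for 0 cells in BC11-38; median depth lay between 5949 and 7190 UMIs while single cells spread widely.

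The depth of these cells set what could be read from them. Their transcripts were counted as unique molecular identifiers (UMIs), 157309 in the 13 unbleached cells, 425535 in the 32 bleached vehicle cells and 240861 in the 33 rolipram cells. The median cell held 7190, 5949 and 6280 UMIs, with ranges of 1474 to 47064, 899 to 57162 and 1020 to 21927. A single cell supplied 29.9% of the unbleached total, 13.4% of the bleached vehicle total and 9.10% of the rolipram total. Levels below are UMIs of a gene summed over the microglia of a library per 1000000 UMIs of those cells (CPM), not divided by transcript length, so they are compared between libraries and not between genes. Rods, which should lack the microglial genes, are given as background where a number of cells with a UMI is read; their median depth was 2012, 1720 and 1896 UMIs.

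The label was checked on genes outside the rule. Against all other cells of the 4 libraries pooled, the genes outside the rule most concentrated in these cells were Tmem119 (241 UMIs, against 1 in all other cells), the inhibitory receptor Lilrb4a (240 against 1) and the integrin Itgam, or CD11b (360 against 3). The rule gene C1qa, whose concentration follows from the choice of cells, had 3740 against 36, 17605-fold per UMI. The 25 leading genes also held the macrophage marker Adgre1 (F4/80), the lipid receptor Trem2, the complement receptor C5ar1, the Fc receptor Fcgr4 and the oxidase subunit Cybb. The secreted signals Ccl3, Ccl4, Ccl6, Ccl12, Tnf and Il1b were among them as well. Only 6 of 14 lymphocyte markers were measured. They made up at most 0.00572% of the cells' UMIs, in the unbleached library, where all other cells gave 0.000161%. Trac, Cd4, Cd8a and Cd79a were at 0. P2ry12 or Tmem119 was seen in 7 of 13, 14 of 32 and 20 of 33 cells. Since the cells were picked by co-expressed genes, these contrasts describe the class and are no test.

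Some cells that met the rule looked unlike the rest. No UMI of the 3 C1q genes was found in 0 unbleached, 3 bleached vehicle and 2 rolipram cells. The 3 bleached vehicle cells held 5566, 6332 and 6554 UMIs and carried Plac8 (11, 5 and 17 UMIs), the leukocyte integrin Itgal (15, 10 and 13) and Ace (4, 3 and 4), genes known from circulating monocytes. At least 2 of the 6 perivascular macrophage genes measured (Pf4, Ms4a7 and others) were seen in 1, 8 and 4 cells. Pf4 itself had 0 UMIs in unbleached cells, 53 in 4 bleached vehicle cells and 177 in 3 rolipram cells. These groupings were drawn after the values were seen. As cells with more UMIs show more genes (median 26213 UMIs for the 8 bleached vehicle cells), they are descriptions. The homeostatic, disease-associated and interferon medians are also given below without these cells, while most single genes are not.

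The libraries differed in sex-linked transcripts. No bleached vehicle microglia held a UMI of Xist, the transcript of the inactive X, while 4 of 13 unbleached and 13 of 33 rolipram cells did; among all other cells the shares were 0.177%, 48.1% and 51.7%. Y-linked transcripts were seen in 18, 6 and 12 cells of the bleached vehicle, unbleached and rolipram libraries. The bleached vehicle pool thus stood apart in sex-linked transcripts, and sex, animal and light cannot be told apart for this library.

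A score that flags droplets with 2 cells, run as an alternative, left out 11 of 13 unbleached, 7 of 32 bleached vehicle and 27 of 33 rolipram cells. No kept unbleached or rolipram cell held P2ry12 or Tmem119. The 2 unbleached cells that remained gave a median of 2.79% of their UMIs to rod genes, those left out 0.186%. In the rolipram library the 6 kept cells gave a median of 0.481% of their UMIs to the rule genes and 1.61% to rod genes, and those left out 2.56% and 0.246%. In the bleached vehicle library it was the other way round, with 2.00% to the rule genes and 0.172% to rod genes in kept cells, and 0.879% and 0.703% in those left out.

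The transcription factor PU.1 binds purine-rich sites that contain GAGGAA and is central to macrophage gene expression, so the windows from 250 bases before to 50 bases after the transcription start were searched for GAGGAA on both strands (GAGGAA or TTCCTC, overlaps allowed). Among the 25 leading genes 17 had a window in the RefSeq table (GRCm38.p6), and 12 of these (70.6%) held a match; among the 7 rule genes it was 3 of 5. Of 27025 genes with a window, 31.3% held one. The match is a description of letters, not of binding. Windows are shown for a C1q gene, for Ctss, the rule gene with the largest difference after bleaching, for P2ry12 of the resting list and for Spp1 of the damage list. Capitals mark each match, and each sequence reads 5′ to 3′ on the gene's strand.

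C1qb, chr4:136886151-136886450, minus strand: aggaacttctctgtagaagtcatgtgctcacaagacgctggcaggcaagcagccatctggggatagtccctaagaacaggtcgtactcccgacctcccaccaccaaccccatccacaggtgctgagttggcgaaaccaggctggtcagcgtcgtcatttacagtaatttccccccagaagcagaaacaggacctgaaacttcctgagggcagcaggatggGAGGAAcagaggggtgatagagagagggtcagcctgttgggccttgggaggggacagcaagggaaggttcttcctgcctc

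Ctss, chr3:95526536-95526835, plus strand: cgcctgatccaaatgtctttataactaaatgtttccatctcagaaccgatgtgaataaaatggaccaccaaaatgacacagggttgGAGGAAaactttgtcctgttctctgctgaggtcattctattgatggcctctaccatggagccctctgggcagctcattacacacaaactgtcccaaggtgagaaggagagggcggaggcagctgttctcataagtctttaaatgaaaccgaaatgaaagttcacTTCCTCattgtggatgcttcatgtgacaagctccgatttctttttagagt

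P2ry12, chr3:59262936-59263235, minus strand: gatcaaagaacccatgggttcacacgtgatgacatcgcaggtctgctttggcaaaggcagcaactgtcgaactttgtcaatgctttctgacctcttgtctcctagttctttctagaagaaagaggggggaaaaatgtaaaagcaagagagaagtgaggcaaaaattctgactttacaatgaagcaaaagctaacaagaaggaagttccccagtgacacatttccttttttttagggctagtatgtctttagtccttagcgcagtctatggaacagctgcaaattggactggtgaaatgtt

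Spp1, chr5:104434861-104435160, plus strand: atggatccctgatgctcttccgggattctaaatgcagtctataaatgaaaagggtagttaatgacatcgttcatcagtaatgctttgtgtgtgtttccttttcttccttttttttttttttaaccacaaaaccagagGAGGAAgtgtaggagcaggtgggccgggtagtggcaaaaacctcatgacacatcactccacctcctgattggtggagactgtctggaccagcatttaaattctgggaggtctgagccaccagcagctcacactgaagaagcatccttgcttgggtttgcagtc

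C1qb held 1 match, Ctss 2, Spp1 1 in the first of its 2 windows, and P2ry12 none, so the matches did not separate the gene higher after bleaching from the genes lower there.

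The first comparison, bleached against unbleached vehicle, describes the microglia 1 day after damaging light. Resting genes stood lower in the bleached vehicle library, and genes of the damage-associated set stood higher. Of 18 homeostatic genes with at least 30 UMIs over both libraries, 12 reached 2-fold lower and 0 reached 2-fold higher, with a median log2 ratio of -1.36. Of 16 disease-associated genes 10 reached 2-fold higher and 0 lower, with a median of 1.48. Over all 2898 genes counted, 8.52% reached 2-fold higher and 8.83% lower, and the median log2 ratio was -0.007. Higher genes were thus 49.1% of those apart, and 69.6% when libraries were scaled by a trimmed mean of ratios, which moved the median of all genes to 0.21; the homeostatic list then had 10 of 18 genes lower and the disease-associated list 11 of 16 higher. Among cells without an Xist UMI the homeostatic and disease-associated medians were -1.26 and 1.91. With the cells of highest doublet score left out, which kept 2 unbleached cells, they were 0.75, a reversed direction, and 2.46; Spp1, Lgals3 and Cd36 stood higher there too. Both lists were chosen with earlier results of these data known.

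**Figure D2:**
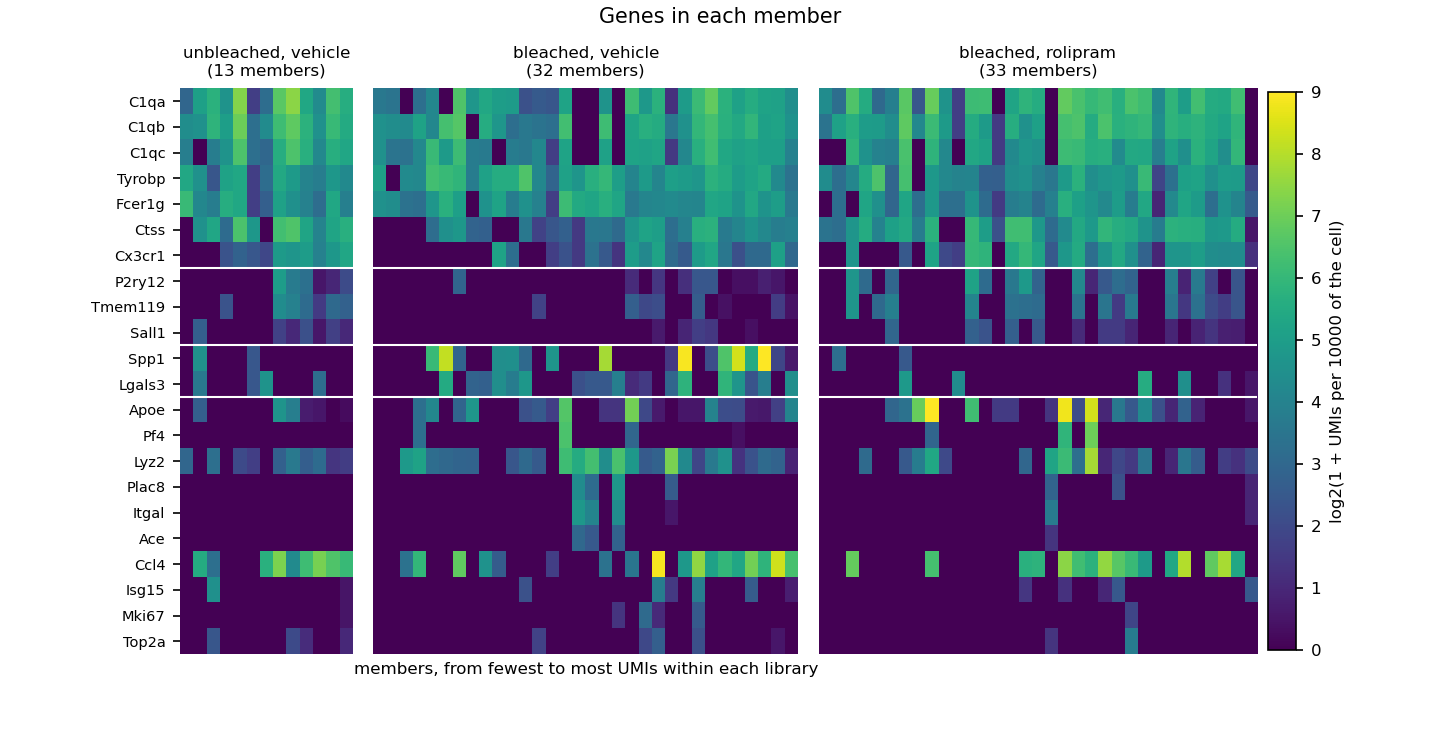
Level of selected genes in each of the 78 cells (rows are genes, columns are cells by library, sorted from fewest to most UMIs, colour is log2 of 1 plus the UMIs per 10000 UMIs of the cell). P2ry12 was found in 6 of 13, 10 of 32 and 18 of 33 cells of the unbleached vehicle, bleached vehicle and rolipram libraries, and Spp1 in 2, 17 and 2, so the list differences rest on part of the cells in each library.

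Among the resting genes P2ry12, the ADP receptor that steers microglial processes, had 72 UMIs in 6 of 13 unbleached cells and 35 in 10 of 32 bleached vehicle cells. The levels were 457.7 CPM (358.1 to 576.4) and 82.3 CPM (57.3 to 114.4), a 5.57-fold lower level (3.67 to 8.59). At most 0.415% of rods in any library held a P2ry12 UMI. Tmem119 had 100 UMIs in 7 cells and 39 in 8 cells, or 635.7 and 91.7 CPM, 6.94-fold lower (4.75 to 10.3). The lectin Siglech was 6.52-fold lower (3.90 to 11.3) and the lysophosphatidylserine receptor Gpr34 4.60-fold lower (3.38 to 6.32). Sall1, the transcription factor that marks microglia among macrophages, had 23 and 13 UMIs, 4.79-fold lower (2.33 to 10.3), and Tgfbr1, a TGF-beta receptor, had 75 and 79. The intervals of these genes did not overlap between the libraries.

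The resting list did not stand lower as a block. Trem2, the lipid-sensing receptor, was at 966.3 CPM (818.7 to 1133) and 923.5 (834.5 to 1020), and the purine receptor P2ry6 at 146.2 and 143.3. Csf1r, the receptor for the survival factor CSF1, was 1.69-fold lower (1.41 to 2.02). Cst3, an abundant protease inhibitor that rods also express, was 2.12-fold lower. Thinned to 1000 UMIs a cell, P2ry12 was seen in 2 of 13 unbleached and 2 of 30 bleached vehicle cells and Tmem119 in 2 of 13 and 4 of 30, so at this depth a difference in the number of cells with a UMI was not detectable.

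Spp1, which encodes the secreted glycoprotein osteopontin, gave the widest difference. It had 6 UMIs in 2 of 13 unbleached cells and 9090 in 17 of 32 bleached vehicle cells, 38.1 (14.0 to 83.0) and 21361 (20924 to 21805) CPM, or 560-fold higher (257 to 1527). The level rested on few cells. The richest cell held 6221 of the UMIs, 68.4% of the sum and 14.8% of that cell's own 41935 UMIs, and the next cells held 1118, 1091 and 272. Without the richest cell 2869 UMIs remained. At least 10 UMIs were found in 9 bleached vehicle cells and in no cell of the other libraries. Thinned to 1000 UMIs, Spp1 was seen in 1 of 13 and 13 of 30 cells, shares of 7.69% (0.195 to 36.0) and 43.3% (25.5 to 62.6) whose intervals overlapped. Rods with a UMI were 0.119% and 1.44% before thinning.

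The 9 Spp1-rich cells were deep, with a median of 29718 UMIs against 4112 in the other 23 bleached vehicle cells, and together held 219128 UMIs against 206407. The comparison is a description of a group chosen on its Spp1. Of 18 other disease-associated genes with at least 10 UMIs, 12 had higher CPM in the rich cells and 2 lower by the interval of the ratio. Of 18 homeostatic genes with as many UMIs, 3 were higher and 9 lower. The same count over all genes was not made, so these counts have no background to be set against. The lipase Lpl stood at 4573 CPM against 915.7, the fatty acid carrier Fabp5 at 931 against 150.2, the growth factor Igf1 at 228.2 (50 UMIs in 4 cells) against 9.69 (2 UMIs), and the lipid droplet coat protein Plin2 at 593.3 against 116.3. The 2 lower disease-associated genes were Apoe, at 173.4 CPM in the rich cells and 1502 in the rest, and Gpnmb, with 1 and 15 UMIs. In the lipid and iron list Nupr1 was also lower, with 5 and 73 UMIs. P2ry12 (10 and 25 UMIs) and Tmem119 (10 and 29) were thinner in the rich cells, yet 6 of the 9 still held a UMI of either. In those 6 cells resting and damage genes were read side by side.

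**Figure D3:**
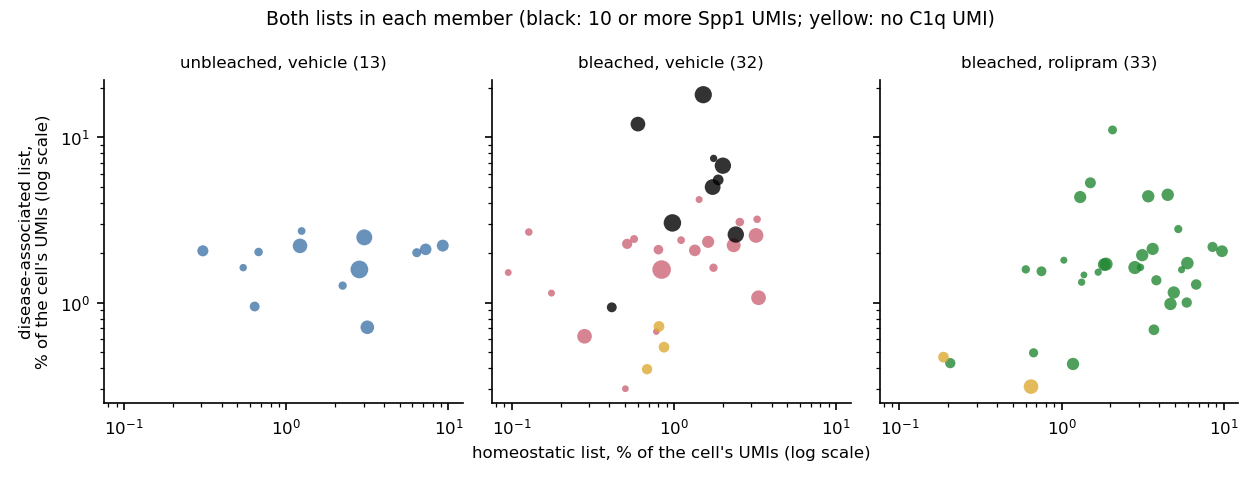
Share of each cell's UMIs from the homeostatic list (x axis, percent) against the disease-associated list (y axis, percent), log axes, 1 point per cell and 1 panel per library; point size grows with the cell's UMIs, black points have at least 10 Spp1 UMIs and yellow points are cells with no C1q UMI. Median homeostatic shares were 2.23%, 1.04% and 2.83%, and the highest disease-associated share, 18.1%, belonged to a bleached vehicle cell.

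Several other damage-associated genes were seen in more cells than Spp1, yet most of their bleached vehicle UMIs lay in the 9 Spp1-rich cells. Lgals3, or galectin-3, had 39 UMIs in 4 of 13 unbleached cells and 627 in 19 of 32 bleached vehicle cells, 247.9 and 1473 CPM, 5.94-fold higher (4.30 to 8.44). Rods with an Lgals3 UMI were 4.65% and 11.3%, so part of these UMIs can be background. Cd63, a lysosomal tetraspanin, was 3.05-fold higher (2.47 to 3.81), Lpl 2.55-fold (2.17 to 3.003) and the lysosomal glycoprotein Cd68 2.25-fold (1.70 to 3.03). In the bleached vehicle cells outside the 9 rich ones, Lpl was at 915.7 CPM. Unbleached cells without and with an Xist UMI stood at 1028 and 1188, so Lpl was not higher outside the rich cells. Cd68 outside them was at 436.0 CPM, against 242.5 and 509.0 in the same unbleached cells. Lgals3 stayed higher outside them, at 804.2 against 247.9 CPM. Cd68 was seen in 9 of 13 and 25 of 32 cells. Csf1 had 0 and 37 UMIs, at least 4.56-fold higher against the floor of 3 counts. Ferritin heavy chain, Fth1, on the same list, stood at 10839 and 10387 CPM and Cd9 at 2460 and 3013.

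A count of cells that hold at least 3 genes of a list was near its ceiling in each library and cannot separate them. For the homeostatic list these were 12 of 13 unbleached, 29 of 32 bleached vehicle and 32 of 33 rolipram cells, and after thinning to 1000 UMIs 11 of 13, 24 of 30 and 29 of 33. For the disease-associated list they were 12 of 13, 31 of 32 and 32 of 33, and 12 of 13, 26 of 30 and 31 of 33 thinned. Between 22.1% and 31.1% of rods reached 3 genes, and Cst3, Apoe and Fth1 were found there. By summed level the homeostatic list took 31295 CPM in unbleached and 15367 in bleached vehicle cells, and the disease-associated list 18492 and 47484 CPM. The median cell gave a disease-associated share of 2.03% and 2.30%.

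**Figure D4:**
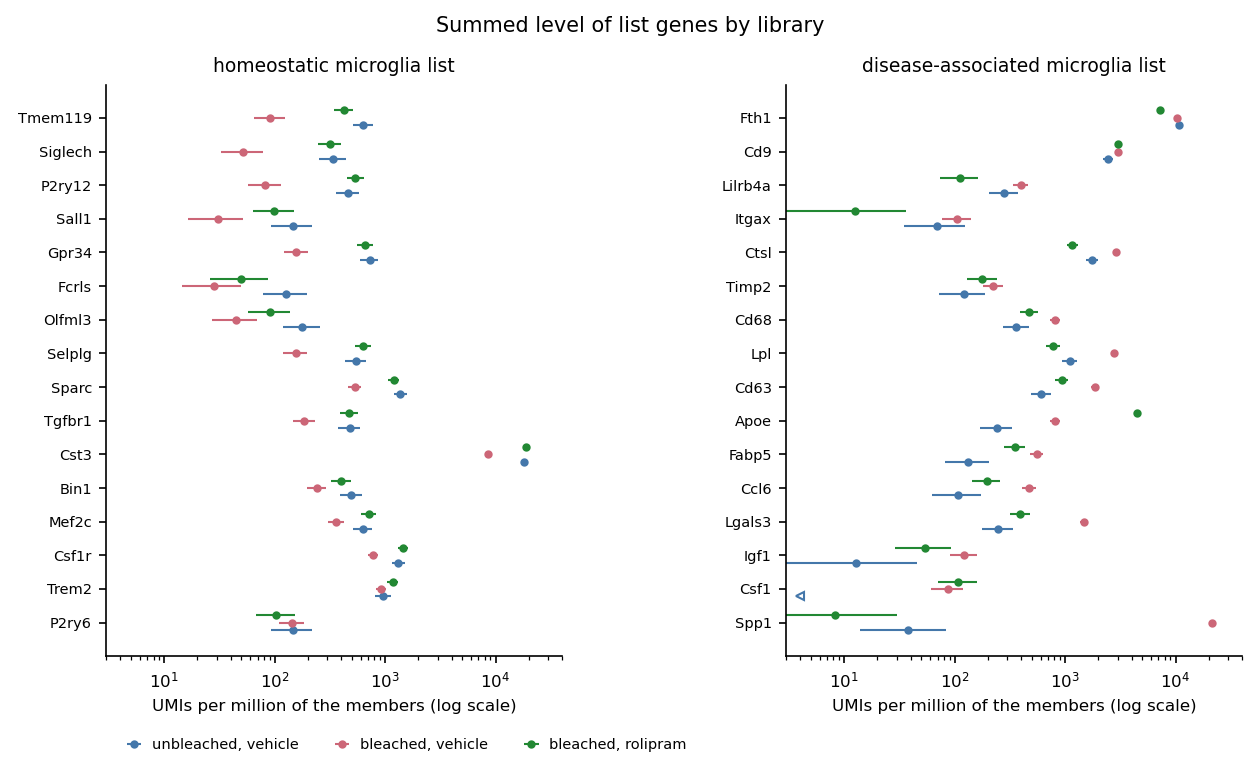
Summed level of homeostatic and disease-associated genes counted after bleaching (UMIs per 1000000 UMIs of the microglia, log axis) in the 3 libraries, with exact 95% Poisson intervals; the open triangle marks Csf1 with 0 UMIs in unbleached cells. Bleached vehicle points lie to the left of the others for P2ry12 (82.3 against 457.7 and 539.7) and Tmem119 and far to the right for Spp1.

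Interferon and antigen presentation genes had few UMIs. Of 7 interferon response genes counted, 5 reached 2-fold higher after bleaching and 0 lower (median log2 ratio 2.02). Ifitm3, an interferon-induced membrane protein, had 7 UMIs in 4 cells and 235 in 15 cells, 12.4-fold higher (5.93 to 31.2), and Bst2, or tetherin, had 17 and 208, 4.52-fold higher (2.76 to 7.91). With each cell weighing the same the list's median was 0.10. One unbleached cell of 2289 UMIs gave 1.354% of them to the list, while the other unbleached cells gave at most 0.318%. MHC class II genes were near absent without bleaching: H2-Aa had 0 and 39 UMIs, the latter in 3 cells. Cd74, the invariant chain, was at 534.0 and 345.4 CPM.

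Chemokine transcripts were already plentiful in unbleached microglia. Ccl4, an attractant of leukocytes, had 1212 UMIs in 9 of 13 unbleached and 4382 in 18 of 32 bleached vehicle cells, 7705 and 10298 CPM, 1.34-fold higher (1.25 to 1.43). Tnf stood at 1341 and 968.2 and the monocyte attractant Ccl2 at 2575 and 2764. Of 15 cytokine genes counted, 5 reached 2-fold higher and 1 lower. The one lower was Il1a, with 154 and 81 UMIs, 5.14-fold lower (3.91 to 6.82); Il1b stood at 597.6 and 578.1. Ccl5 had 4 and 189 UMIs, of which 187 came from 1 cell. Il6 and Il10 were not analysed here. Of 18 immediate early genes 6 reached 2-fold lower and 0 higher (median -0.83): Fos had 765 and 1132 UMIs, 4863 and 2660 CPM, and Atf3 1774 and 744.9. This median was 6.68 with the highest doublet scores left out, which kept 2 unbleached cells. Fos was seen in 61.4% and 68.6% of rods, so it is not particular to these cells.

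Genes of uptake and of lipid and iron storage were higher as a subset. Of 21 phagocytosis and lysosome genes 5 reached 2-fold higher (Cd36, Msr1, Cd68, Ctsb and Lyz2) and 1, Ctss, lower. Lyz2, or lysozyme, had 62 UMIs in 10 cells and 775 in 27 cells, 4.62-fold higher (3.57 to 6.09), with at most 0.1203% of rods holding a UMI. Of the 775, 316 lay in 1 cell that also held Plac8 and Itgal, and 25, 50 and 55 in the 3 cells without C1q. The scavenger receptor Cd36 had 9 and 131 UMIs, 5.38-fold higher (2.75 to 12.0). Ferritin light chain, Ftl1, was at 4768 and 9259 CPM. Of 10 lipid and iron genes 5 reached 2-fold higher and 0 lower. By the rule for named genes the largest increases beside Spp1 were in genes with 0 unbleached UMIs. The membrane protein Emp1 led them (0 and 69 UMIs, at least 8.50-fold), followed by Pf4, Cspg4, Plac8 and Itgal. Of these, Pf4, Plac8 and Itgal are genes by which the unusual cells were described above. The largest decreases were Tnfaip2 (46 and 14 UMIs, 8.89-fold lower, 4.80 to 17.5), the heat shock gene Hspa1a (59 and 19) and Tmem119.

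The second comparison, rolipram against bleached vehicle, gives the microglia after the same light with the phosphodiesterase 4 inhibitor. It shares the bleached vehicle library with the first, so opposite directions in the pair of comparisons can come from that 1 library. Homeostatic genes stood higher in the rolipram library, with 12 of 19 counted at least 2-fold higher and 0 lower (median log2 ratio 1.17). Disease-associated genes stood lower, with 8 of 16 at least 2-fold lower and 1, Apoe, higher (median -1.08). Over 3376 genes counted, 11.8% reached 2-fold higher and 7.11% lower, and the median was 0.053. The share of higher genes among those apart, 62.4%, turned with the scaling. It was 36.4% by the trimmed mean of ratios, with the median of all genes at -0.21, and 78.4% by genes enriched in microglia, with the median at 0.26. Homeostatic genes at least 2-fold higher then numbered 9 and 15 of 19, and disease-associated genes lower 10 and 7 of 16. Among cells without an Xist UMI the homeostatic and disease-associated medians were 1.28 and -0.89. With the highest doublet scores left out, which kept 6 rolipram cells, they were -2.29, again reversed, and -2.56.

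P2ry12 had 35 UMIs in 10 of 32 bleached vehicle cells and 130 in 18 of 33 rolipram cells, 82.3 and 539.7 CPM (450.9 to 640.9), 6.56-fold higher (4.49 to 9.82). Thinned to 1000 UMIs it was seen in 2 of 30 and 11 of 33 cells, shares of 6.67% (0.818 to 22.1) and 33.3% (18.0 to 51.8) whose intervals overlapped. Tmem119 had 39 and 102 UMIs, 4.62-fold higher (3.17 to 6.87), and Siglech 22 and 76, 6.10-fold higher (3.76 to 10.3). P2ry13, a further ADP receptor, had 6 and 37 UMIs, 10.9-fold higher (4.56 to 31.6), and Entpd1, the ATP-degrading ectoenzyme CD39, had 5 and 26, 9.19-fold higher (3.47 to 30.6). Trem2 again differed little, at 923.5 and 1171 CPM, 1.27-fold higher (1.08 to 1.48).

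Spp1 had 2 UMIs in 33 rolipram cells, 1 in each of 2 cells, against 9090 in the bleached vehicle library, 2573-fold lower (712 to 21246). Lgals3 had 94 UMIs in 6 cells, 3.78-fold lower (3.04 to 4.74), Lpl 188 UMIs, 3.59-fold lower (3.07 to 4.21), and Itgax, the integrin CD11c, 3 UMIs against 45, 8.49-fold lower (2.73 to 42.7). Cd36 had 5 UMIs against 131, 14.8-fold lower (6.20 to 46.4). Plin2 had 11 against 154, 7.92-fold lower (4.31 to 16.2), and Il1rn, the interleukin-1 receptor antagonist, 1 against 91, 51.5-fold lower (9.02 to 2057). Apoe went the other way, with 1090 UMIs in 20 cells against 348 in 22, 5.53-fold higher (4.9 to 6.26). Of these, 963 lay in 3 rolipram cells that had over 40 Apoe UMIs and also held Pf4, the richest with 352. Without them rolipram stood at 576.2 CPM (480.3 to 685.5), 1.42-fold lower (1.16 to 1.75) than the 817.8 CPM of all bleached vehicle cells. With the 2 such bleached vehicle cells left out too, it was 1.32-fold higher (1.04 to 1.66) than 437.5 CPM. Rods with an Apoe UMI were 24.95% and 19.98%, so cells with a few UMIs cannot be read as expressing it.

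Immediate early genes stood higher with rolipram, 8 of 18 at least 2-fold and 0 lower (median 0.99): Jun stood at 1488 and 3915 CPM, Egr3 had 19 and 64 UMIs, and Ier3 86 and 274, 5.63-fold higher (4.40 to 7.26). The list's median was -1.51 with the highest doublet scores left out. Of 15 cytokine genes 2 reached 2-fold higher (Ccl7 and Cxcl2, in 3 cells each) and 4 lower. Tnf stood at 968.2 and 963.2 CPM, Ccl2 was 1.94-fold lower (1.72 to 2.20) and Il1b 2.84-fold lower (2.08 to 3.95). Of 9 interferon genes 1 reached 2-fold higher and 2 lower, and of 10 MHC genes 0 and 3. Genes of cyclic AMP signalling were thinly covered, with 7 of 29 counted. The target of rolipram was hardly measured in these cells, with 5, 8 and 4 UMIs of Pde4b in the unbleached vehicle, bleached vehicle and rolipram libraries, 3, 5 and 4 of Pde4a and 0, 8 and 3 of Pde4d, while Pde11a had 0 in each.

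The third comparison set rolipram beside unbleached vehicle, which leaves the bleached vehicle library out. Of 20 homeostatic genes 2 reached 2-fold higher and 1 lower (median -0.03), and of 12 disease-associated genes 2 were higher and 1 lower (median 0.47). Over 2175 genes, 7.4% reached 2-fold higher and 6.11% lower. Higher genes were 54.8% of those apart, and 74.7% when scaled to genes enriched in microglia, which put the median of all genes at 0.22. P2ry12 stood at 457.7 and 539.7 CPM, 1.18-fold higher (0.878 to 1.60), Tmem119 at 635.7 and 423.5, and Gpr34 at 724.7 and 660.1. For most homeostatic genes the unbleached and rolipram libraries were thus close and the bleached vehicle library was the one apart. Some genes did not follow this order. Lyz2 had 62, 775 and 381 UMIs, or 394.1, 1821 and 1582 CPM, 4.01-fold higher (3.06 to 5.34) with rolipram than without bleaching. Of the rolipram UMIs, 231, 48 and 12 lay in the 3 cells with Pf4 and over 40 Apoe UMIs. A further 24 and 7 lay in the 2 cells without C1q. The rolipram level of Lyz2 thus rested largely on unusual cells, and the ratio without them was not computed. Ifitm3 was at 44.5, 552.2 and 572.9. Il1a, at 979.0, 190.3 and 282.3, and Ly86, a partner of a Toll-like receptor, at 4456, 1448 and 1420, stood lower in both bleached libraries.

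In cells without an Xist UMI, P2ry12 stood at 346.5 (9 unbleached cells), 82.3 (32 bleached vehicle) and 506.3 (20 rolipram) CPM, and Lgals3 at 242.5, 1473 and 553.0, so the bleached vehicle library was again the lowest for P2ry12 and the highest for Lgals3. This subset keeps every bleached vehicle cell and does not match the libraries for sex. Y-linked UMIs were seen in only 6 of 13 unbleached and 12 of 33 rolipram cells, and 2 and 1 of these also held Xist.

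Without the cells that lacked C1q or held at least 2 perivascular macrophage genes, the homeostatic median was -0.94 after bleaching (0 of 15 genes higher, 7 lower) and 1.40 with rolipram, and the disease-associated median 1.504 and -1.66. Of 4 interferon genes then counted after bleaching, 2 reached 2-fold higher and 0 lower (median 1.15), and the interferon median with rolipram was -0.49. Without the deepest cell of each library, 289 of the 503 genes at least 2-fold apart after bleaching and 440 of 638 with rolipram stayed so in the same direction.

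**Figure D5:**
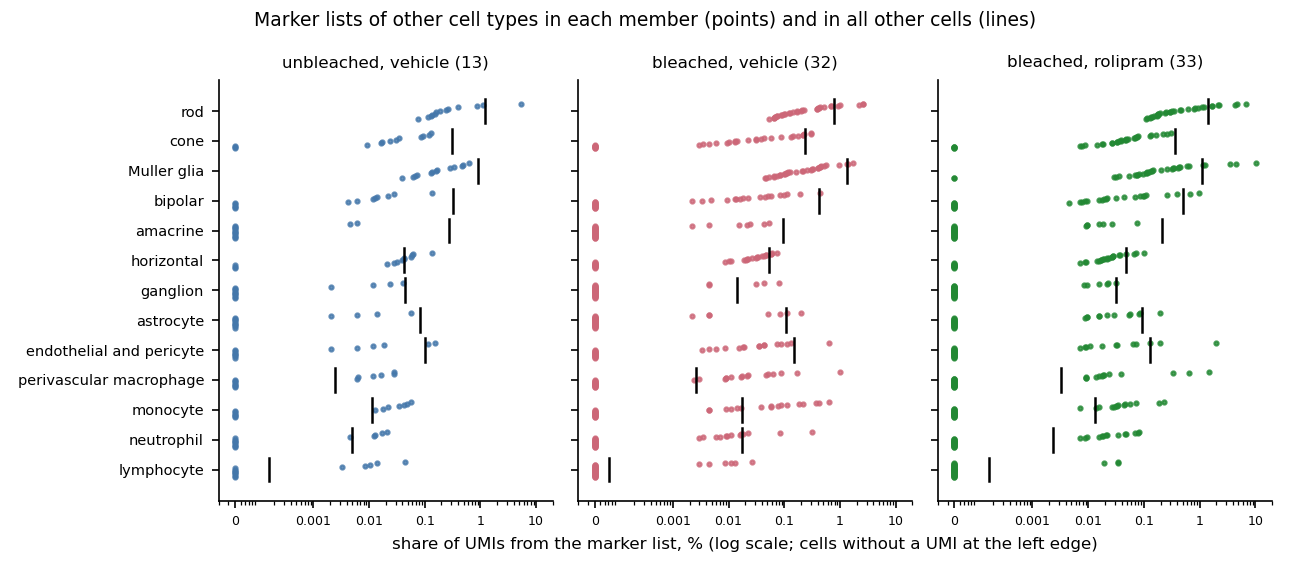
Share of each cell's UMIs from marker lists of other cell types (percent, log axis, zeros drawn at the left edge), 1 point per cell and 1 panel per library, with lines for all other cells of the library. Rod genes made up 0.307%, 0.138% and 0.516% of the microglial UMIs in the unbleached vehicle, bleached vehicle and rolipram libraries, under the 1.21%, 0.796% and 1.43% of all other cells.

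Rod markers, all 17 of which were found in each library, ranged between cells from 0.0765% to 5.42% in unbleached, 0.0528% to 2.57% in bleached vehicle and 0.109% to 6.87% in rolipram microglia. Of 15 rod genes counted, 14 reached 2-fold higher with rolipram than in bleached vehicle cells, and after bleaching 9 of 11 were lower. Rod transcripts thus followed the same order over the libraries as the resting genes; their part in the lists above was not tested, and P2ry12, Tmem119 and Siglech were each found in under 0.5% of rods. Müller glial genes took 0.219%, 0.480% and 0.640%, a list that holds Apoe. The 14 others took 0.195%, 0.398% and 0.188%, with no cell above 1.24%, and so stood highest in bleached vehicle cells. Of 9 Müller genes counted, Apoe among them, 7 reached 2-fold higher and 2 lower after bleaching (median log2 ratio 2.02), and 3 higher and 6 lower with rolipram (median -2.42). They moved in the same direction as the disease-associated list, and their part in it was not tested. Rlbp1, a retinoid-binding protein of Müller cells, had 1, 82 and 0 UMIs, 80 of them in 1 bleached vehicle cell. Likewise 1 cell held 104 of 108 bleached vehicle UMIs of Crym, 45 of 46 of Clu and 119 of 145 of Cp, whereas Dbi had 228 UMIs in 28 cells. The deepest bleached vehicle cell, of 57162 UMIs, held all 15 Müller genes and was left out by the doublet score. Without the deepest cell of each library the homeostatic and disease-associated medians were -1.13 and 1.25 after bleaching. Vim, or vimentin, which macrophages also express, had 61, 845 and 37 UMIs, the middle number in 20 cells. Bipolar genes took 0.0102%, 0.0136% and 0.0722%, with rolipram cells at up to 0.972% and bleached vehicle cells at up to 0.435%. Endothelial genes took 0.0102%, 0.0642% and 0.192%, with 1 rolipram cell at 2.01% that also lacked C1q. Mitochondrial transcripts had medians of 3.60%, 2.88% and 2.86%. No barcode of these cells was shared with another library, while 92 barcodes of other cells were.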

How the data were processed

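Single-cell RNA-seq libraries were aligned and counted with Cell Ranger 6.0.1 and handled in Seurat 3.2.2 on mm10, per the submitters' processing notes; the settings of each step were not stated in those notes. The authors deposited 1 matrix of 26543 cells and 20094 genes whose values are the natural log of 1 plus the UMIs per 10000 UMIs of the cell, found from the values. Reversing this gave whole UMIs for 100% of values within 0.001, and 140410160 UMIs in all. Library totals were 35495396 (unbleached vehicle), 44386442 (bleached vehicle), 31544696 (rolipram) and 28983626 (BC11-38). The lowest gene number in a cell was 497 and every gene was found in at least 10 cells.

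Members, gene lists and comparisons were chosen with earlier results of these data known. UMIs were summed over the members of a library and scaled to a sum of 1000000. Genes with at least 30 UMIs over both libraries were counted as apart at 2-fold, on a log2 ratio with a prior of 0.5 UMIs. A count of 0 was set to 3 counts for bounds. With 1 library per group no test was run and no count model was fitted.

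Named genes were the 7 rule genes, the 25 most concentrated in members (at least 50 UMIs and 20% of members), the 10 highest and 10 lowest per comparison (at least 3-fold enriched in members, in at least 4 members, without Xist, Tsix and Y-linked genes) and, per list, the leading members by UMIs. Genes named beside these were chosen after their values were seen. Rods were cells with at least 10 of 17 rod markers. Alternatives were stricter or looser rules, scalings, weights and minima, doublet scores from scanpy 1.11.5 with the highest 4.56% to 6.32% of cells per library left out, and, added after seeing the data, 3 subsets of members and Apoe without its richest cells. Promoters came from the RefSeq table for GRCm38.p6. Python 3.11.15, numpy 2.4.6, scipy 1.17.1 and pandas 2.3.3 were used, and the steps were tested on simulated data. Some list genes are counted but not reported by name here.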

Additional observations from a re-analysis of the deposited data

How the results depend on the processing

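Of the shares and log2 ratios recomputed under the alternatives, 141 stayed within limits drawn from counting error, 36 moved further and 5 reversed. For a list median these limits were the medians of its genes' lower and upper bounds, not an interval of the median itself. Of the counts of genes apart, 20 stayed within 1.5 times and 13 did not. The cause was not tested. Leaving out the highest doublet scores left microglial shares of 0.0368% (unbleached vehicle) and 0.0811% (rolipram), and 926 genes at least 2-fold apart after bleaching, of which 76.5% were higher, 877 with rolipram, of which 27.5% were higher, and 51 between rolipram and unbleached vehicle. It reversed the homeostatic (0.75) and immediate early (6.68) medians after bleaching and those with rolipram against bleached vehicle (-2.29 and -1.51). The disease-associated, interferon and cytokine medians became 2.46, 5.65 and 7.23 after bleaching and -2.56, -2.93 and -6.39 with rolipram. The 2 unbleached cells kept held 3242 and 4540 UMIs, and 6 rolipram cells were kept. A gene with 0 UMIs in the kept cells takes its ratio from the prior of 0.5 UMIs, and these medians were not bounded. Against unbleached vehicle the rolipram medians became -1.85 (homeostatic), -1.85 (disease-associated) and 1.24 (immediate early).

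In the order bleaching, rolipram against bleached vehicle, rolipram against unbleached vehicle, genes at least 2-fold apart numbered 503, 638 and 294. They became 834, 1020 and 464 with each cell weighing the same, 6083, 6008 and 6131 with no minimum beyond 1 UMI, and 119, 149 and 51 at a minimum of 100. Without cells lacking C1q or with macrophage genes they were 305 after bleaching and 194 in the last comparison. A trimmed mean of ratios put the median of all genes at 0.21, -0.21 and 0.03; list medians were then -0.61 (immediate early) and 0.64 (cytokines) after bleaching, and 0.91 (homeostatic), 0.73 (immediate early) and -0.89 (cytokines) with rolipram. Equal weights gave 0.1 (interferon) and 0 (cytokines) after bleaching, 1.79 (homeostatic), 1.2 (immediate early) and -0.04 (cytokines) with rolipram, and 0.42 (immediate early) in the last comparison. Scaling to genes enriched 5-fold in microglia gave 1.2 (immediate early) and -0.41 (cytokines) with rolipram. Leaving out the deepest cell of each library gave -0.37 (cytokines) with rolipram.

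Apoe with rolipram, 2.47 on the log2 scale, became -0.5 without the 3 rolipram cells that held Pf4 and over 40 Apoe UMIs, and 0.4 with such cells left out of both libraries, a choice made after seeing the data. Also chosen after seeing the data, leaving out cells without C1q or with macrophage genes gave -0.94 (homeostatic) after bleaching, and -1.66 (disease-associated) and -0.79 (cytokines) with rolipram. Keeping cells without an Xist UMI gave 1.91 (disease-associated) and 0.78 (cytokines) after bleaching, -0.41 (cytokines) with rolipram, and 1.08 (disease-associated) and 0.29 (cytokines) in the last comparison. With at least 2 list genes needed, 100% of rolipram cells held either list. No paired analysis was possible because each group has 1 library. At 13 to 33 cells per library, genes under 30 UMIs over both libraries could not be compared.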
